A study of Rattus norvegicus with 60 samples.

Results

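The genes examined here encode the nuclear-encoded proteins of the mitochondrial respiratory chain and ATP synthase, measured in the frontal cortex of rats 6 h after 1 oral dose of a pyrethroid insecticide. Members were all probe sets whose annotation gave 1 gene symbol beginning with Ndufa, Ndufb, Ndufs, Ndufv, Sdh, Uqcr, Cox4, Cox5, Cox6, Cox7, Cox8 or Atp5. This rule used names and no measured value. It took 99 of the 31042 probe sets on the array, for 88 of the 14217 genes with a symbol, and the brightest probe set of a gene (by its mean over the 60 arrays) stood for it. By role, 74 of the 88 genes encoded subunits, 10 assembly factors and 1 an inhibitor of ATP synthase (Atp5if1). The other members were 2 subunit-like genes (Ndufa4l2 and Cox7a2l) and the pseudogene Cox6c-ps1. Counting assembly factors with their complex, 39 genes belonged to complex I, 8 to complex II, 8 to complex III, 17 to complex IV and 16 to complex V. Another 7 probe sets matched the prefixes but carried several symbols and were not members. Ndufs5, Ndufa10, Uqcrb, Cox7a2, Atp5mc1 and Atp5mc2 are therefore not described, whereas Cox5a kept another probe set.

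All rats were adult male Long-Evans animals of postnatal day 62 to 64, and every rat, vehicle rats included, received corn oil by gavage and gave 1 array of total RNA. The 7 groups were 12 vehicle rats and 8 rats for every other group. Deltamethrin was given at 0.3, 1 or 3 mg/kg. Permethrin was given at 1, 10 or 100 mg/kg. Deltamethrin carries a cyano group that permethrin lacks, and was given as a single isomer, whereas permethrin was a mixture of cis and trans isomers. The study placed the lowest doses below, and the middle doses at, a no-effect level for motor activity, while the highest doses reduced activity to different degrees.

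The respiratory chain passes electrons from NADH through complex I, or from succinate through complex II, to complexes III and IV and finally to oxygen. The proton gradient built by complexes I, III and IV drives ATP synthesis by complex V. Most subunits are encoded in the nucleus, a small catalytic core is encoded by mitochondrial DNA, and neurons draw most of their ATP from this pathway because ion pumping after action potentials and synaptic activity is costly.

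Many of these genes carry sites for the nuclear respiratory factors NRF1 and GABP (also called NRF2) next to their transcription start. RefSeq promoters on GRCr8 were found for 80 of the 88 genes, with 1 promoter taken per member, and the 250 bases before the start were searched on both strands. The GABP motif CCGGAAG was present in 24 of these 80 promoters (30.0%), against 7.27% of all 33469 promoters. The NRF1 motif GCGCATGC was present in 9 of 80 (11.2%), against 2.20% of all promoters. All listed promoters were counted, with no choice of 1 per gene and no matching to the members in gene type or base composition. Both motifs occurred in 4 members, among them Ndufa6 and Sdhb. These 2 are printed below because they hold both motifs, Ndufaf8 because it had 1 of the lowest unadjusted p-values at 10 mg/kg permethrin, and Cox6a2 because it held neither motif and had the lowest p between the middle doses of the compounds. The 4 were chosen with their values known. Capitals mark the motifs on either strand. Each run is the 250 bases upstream of the start, 5′ to 3′ on the strand of the gene. Ndufa6 is at chr7:115750318-115750567 on the minus strand, Sdhb at chr5:158547684-158547933 on the plus strand, Ndufaf8 at chr10:105879658-105879907 on the plus strand and Cox6a2 at chr1:192219717-192219966 on the minus strand.
Ndufa6: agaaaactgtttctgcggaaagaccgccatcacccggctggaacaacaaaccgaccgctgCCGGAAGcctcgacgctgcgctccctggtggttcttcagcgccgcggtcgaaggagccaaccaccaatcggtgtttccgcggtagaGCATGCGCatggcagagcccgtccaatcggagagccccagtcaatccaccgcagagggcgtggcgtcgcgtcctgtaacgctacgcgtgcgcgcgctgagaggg
Sdhb: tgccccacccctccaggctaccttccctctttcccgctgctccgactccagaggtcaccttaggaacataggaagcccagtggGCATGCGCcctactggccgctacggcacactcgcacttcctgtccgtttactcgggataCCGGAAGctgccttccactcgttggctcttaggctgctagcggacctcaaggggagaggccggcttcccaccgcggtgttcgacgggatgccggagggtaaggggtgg
Ndufaf8: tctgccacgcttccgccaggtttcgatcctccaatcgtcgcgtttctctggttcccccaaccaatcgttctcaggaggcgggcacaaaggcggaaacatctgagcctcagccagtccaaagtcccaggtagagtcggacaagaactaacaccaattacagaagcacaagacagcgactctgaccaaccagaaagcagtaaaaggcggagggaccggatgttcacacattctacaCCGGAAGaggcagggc
Cox6a2: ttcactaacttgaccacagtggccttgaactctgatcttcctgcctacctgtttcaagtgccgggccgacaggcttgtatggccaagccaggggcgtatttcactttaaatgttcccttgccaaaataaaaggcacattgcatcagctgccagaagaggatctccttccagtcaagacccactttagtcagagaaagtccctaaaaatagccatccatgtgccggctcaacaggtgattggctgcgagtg
A match describes these letters only and was not tested as a binding site.

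The deposited values were log2 expression summaries, with medians of 7.07 to 7.20 per array. The first 2 principal components of probe sets that are not members separated the arrays into group A, with 24 arrays (6 vehicle and 3 of each dose), and group B, with 36 arrays (6 vehicle and 5 of each dose). The sizes equal those of the study's 2 cohorts, but the labels name no cohort. The first component held 58.0% of the variance, and 15 arrays stood apart on it. These were 2 vehicle arrays, 1, 3 and 2 arrays of deltamethrin from the lowest dose to the highest, and 2, 3 and 2 arrays of permethrin likewise. All but 1 of these 15 belonged to group A. Neuronal markers (Rbfox3, Snap25, Syt1 and Stmn2, 4 of 4 measured) had mean log2 values of 10.9 to 13.1, and skeletal muscle markers (Acta1, Ckm and Myh4, 3 of 3) of 4.08 to 8.23. Striatal neuron markers (5 of 5) had 8.58 to 12.3 and blood cell markers (2 of 3) 8.39 to 12.5. These levels come from different probe sets, cannot be compared with each other and do not show that a cell type was absent. In whole cortex, fewer cells of a type and less RNA per cell cannot be told apart.

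No respiratory chain gene passed the test at any dose of either compound. With limma, and p-values adjusted by Benjamini-Hochberg for the 31042 probe sets on the array, 0 of 88 members were called at an adjusted p under 0.05 in any of the 12 comparisons, and 0% of all probe sets were called. The members are therefore described by their sizes and intervals, and by counts at an unadjusted p under 0.05 read against the share of all probe sets that passed the same limit.

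The widest shift of the respiratory chain genes was seen at 10 mg/kg permethrin, where 71 of 88 were above vehicle and 17 were not. Their median log2 difference was 0.092, against -0.00065 over all probe sets. At an unadjusted p under 0.05, 19 members were higher than vehicle and 0 were lower. This was 21.6% of the members, against 3.48% of all probe sets in either direction and 2.36% higher. These are not counts of independent genes, because the members varied together between rats (median Pearson's r of 0.27 within array group B, given below). Complex I contributed 11 of its 39 genes and had a median difference of 0.11. Complex III contributed 2 of 8 (median 0.078), complex IV 2 of 17 (median 0.016) and complex V 4 of 16 (median 0.088), whereas complex II contributed 0 of 8 (median 0.086). Assembly factors made up 2 of the 19. Complex I also had the highest median of the complexes on the 15 arrays that stand apart, 0.19 above the other arrays. These arrays include 3 of the 8 at this dose and 2 of the 12 vehicle arrays. Their part in the order of the complexes was not tested.

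**Figure D1:**
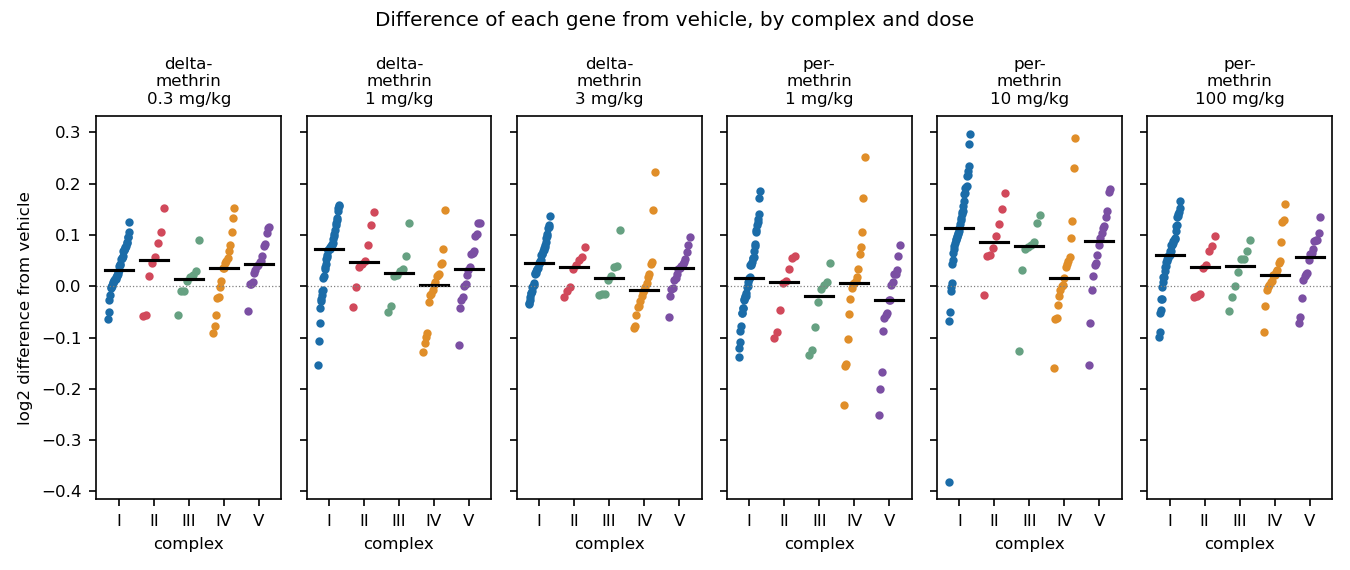
Log2 difference of each respiratory chain gene from vehicle (vertical axis) at each of the 6 doses (panels), by complex (horizontal axis). Points are genes and black bars are the medians of a complex, which at 10 mg/kg permethrin were 0.11 for complex I and 0.016 for complex IV. The lowest point in that panel is the assembly factor Ndufaf4 at -0.38. Without the arrays that stand apart, the lowest difference of any member at that dose was -0.15.

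Ndufa2, an accessory subunit of the peripheral arm of complex I, had log2 values of 9.79 to 10.12 in the 12 vehicle rats, with a median of 9.90. After 10 mg/kg permethrin the 8 rats lay between 9.90 and 10.43, with a median of 10.14. The groups overlapped, with 6 of 8 treated rats over the vehicle mean. Its log2 difference was 0.22 (SE 0.074, 95% interval 0.077 to 0.37), with limma's unadjusted p of 0.0035 and an adjusted p of 0.961. Ndufaf8, an assembly factor of complex I, had vehicle values of 8.94 to 9.38 with a median of 9.12. After 10 mg/kg permethrin it ran from 9.17 to 9.52 with a median of 9.42, and all 8 rats exceeded the vehicle mean. Its log2 difference was 0.23 (SE 0.078), with limma's unadjusted p of 0.0041 and an adjusted p of 0.961.

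Cox6a2, the heart and muscle isoform of a complex IV subunit, ran from 7.03 to 7.92 in vehicle rats (median 7.57) and from 7.62 to 8.27 at 10 mg/kg permethrin (median 7.74). All 8 treated rats lay above the vehicle mean, and the log2 difference was 0.29 (SE 0.10). The skeletal muscle markers differed at the same dose by 0.25 (SE 0.089) for Acta1, 0.0034 for Ckm and 0.032 for Myh4, and the list ran from -0.16 to 0.19 per vehicle rat and from -0.10 to 0.25 per treated rat; its part in the result was not tested. Atp5if1, which blocks ATP hydrolysis by complex V when the gradient collapses, ran from 10.52 to 11.10 in vehicle rats (median 10.79) and from 10.72 to 11.12 at this dose (median 11.03). Its log2 difference was 0.18 (SE 0.069), with 7 of 8 rats over the vehicle mean. Ndufb7, an accessory subunit of the membrane arm of complex I, had the largest difference of the 88 genes at this dose, 0.30 (SE 0.12), with 8 of 8 rats above the vehicle mean. The other 14 of the 19 genes were Atp5po, Ndufa8, Ndufab1, Uqcrq, Ndufb6, Atp5pd, Ndufa9, Ndufa13, Ndufaf3, Ndufa7, Ndufs6, Atp5mg, Cox6b1 and Uqcr10, with log2 differences from 0.087 for Uqcr10 to 0.21 for Ndufa9. The adjusted p of all 19 was 0.961.

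**Figure D2:**
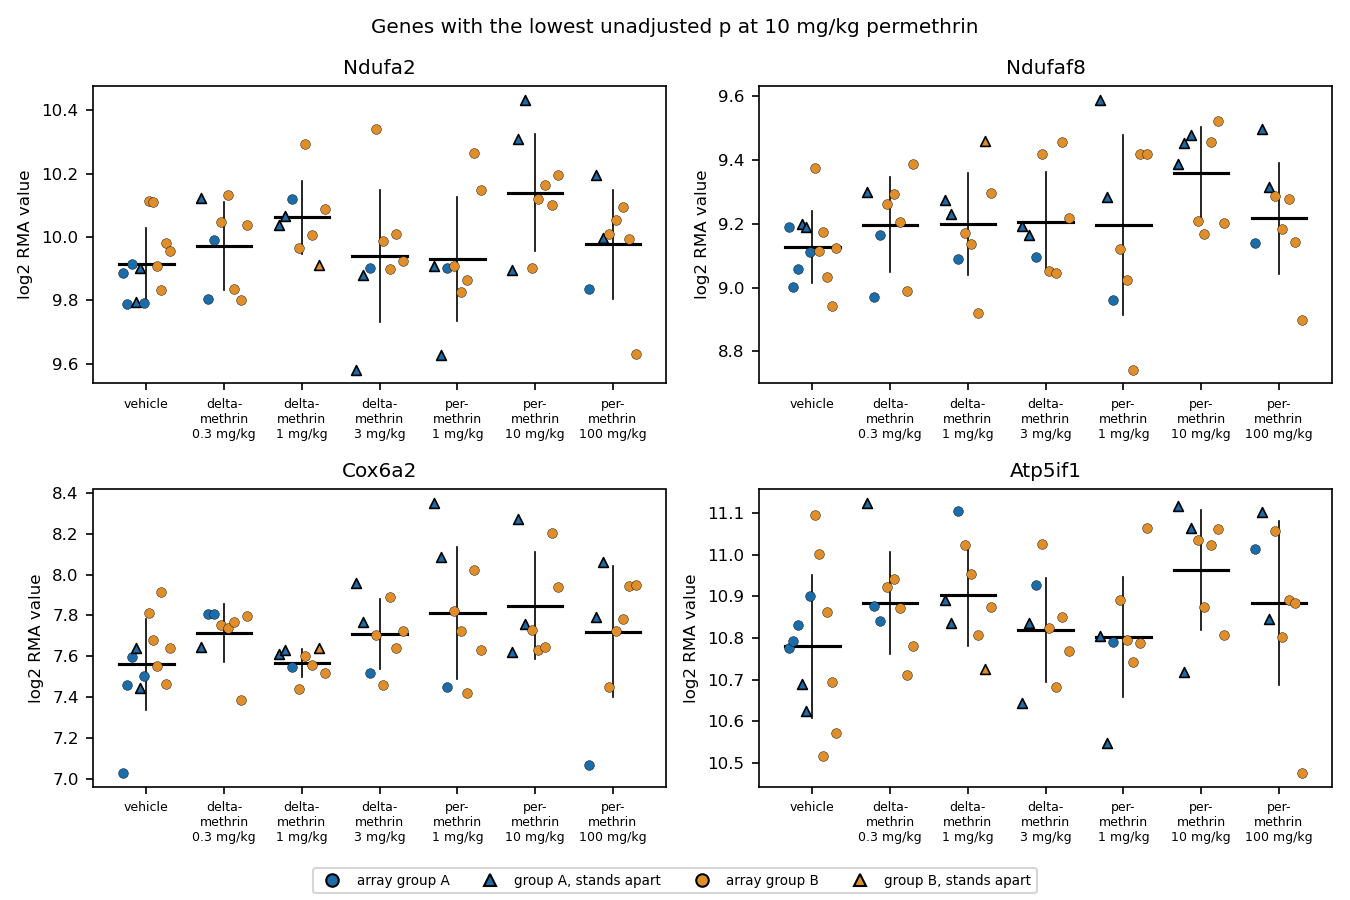
Log2 values (vertical axis) of Ndufa2, Ndufaf8, Cox6a2 and Atp5if1 in every rat of the 7 groups (horizontal axis), with the mean and SD of each group as black lines. Colours give the array group and triangles the 15 arrays that stand apart; all 8 rats at 10 mg/kg permethrin are above the vehicle mean for Ndufaf8 and Cox6a2, within the range of other groups.

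The shift at 10 mg/kg permethrin was not of the same size in all arrays. Taking for each rat the median over the 88 genes of the difference from the vehicle mean, the 12 vehicle rats ran from -0.062 to 0.089 with a median of -0.0062. The 8 rats at 10 mg/kg permethrin ran from -0.00049 to 0.21 with a median of 0.10, and 4 of 8 were above every vehicle rat. Of these 4, 3 were the 3 rats of array group A, with values of 0.12 to 0.21, and all 3 of these arrays stood apart on the first principal component. The other 5 rats, in array group B, ran from -0.00049 to 0.12, and 1 of these 5 was above every vehicle rat. Over all groups, rats on the 15 arrays that stand apart had a median of 0.086 on this measure (-0.043 to 0.26). The other 45 had a median of 0.027 (-0.12 to 0.12). The 2 vehicle rats on such arrays were at 0.086 and 0.072. The part of these arrays in the shift at this dose was not tested. Within array group A alone, 18 members were higher and 1 lower at an unadjusted p under 0.05, with a median difference of 0.17, where 8.51% of all probe sets passed. Within array group B alone, 1 was higher and 0 were lower, with a median difference of 0.050, where 2.31% passed. Without the 15 arrays that stand apart, 10 were higher and 0 lower, with a median of 0.058, where 4.53% passed. That fit set 5 treated arrays, all of group B, against 10 vehicle arrays of both array groups. It had no term for array group, so its count is not free of differences between the array groups. Ndufa2 differed from vehicle by 0.37 in group A and 0.11 in group B, and Ndufaf8 by 0.31 and 0.19. The difference in shift between the array groups was not tested. The neuronal marker list (4 of 4 measured) ran from -0.42 to 0.14 per rat in vehicle and from -0.54 to 0.14 at this dose, and its part in the result was not tested.

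**Figure D3:**
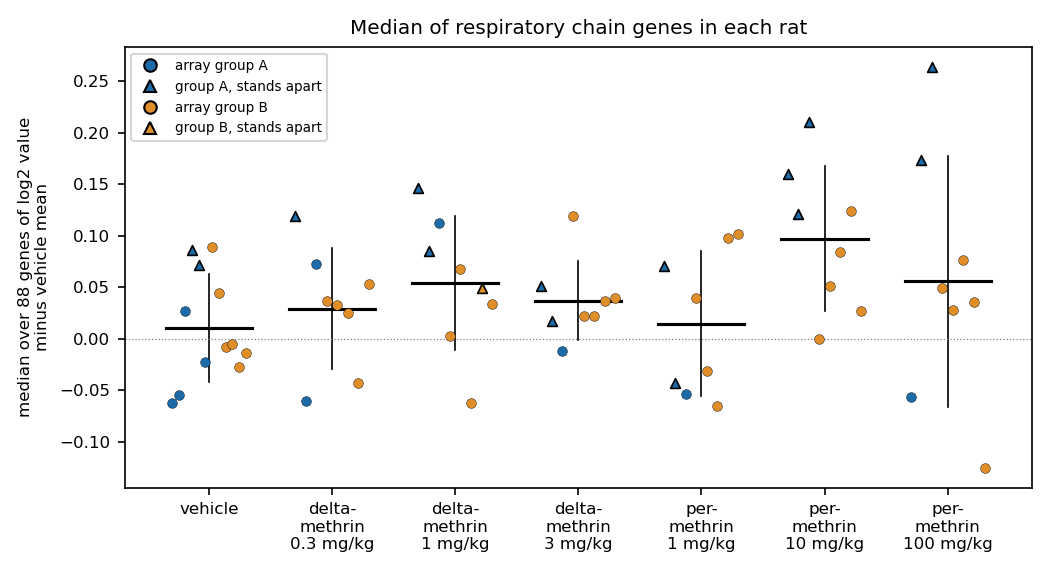
Median over 88 respiratory chain genes of the log2 value minus the vehicle mean (vertical axis) in each rat, by group (horizontal axis), with the mean and SD of each group as black lines. Colours give the array group and triangles the arrays that stand apart; the 3 rats of group A at 10 mg/kg permethrin, all triangles, lie between 0.12 and 0.21.

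Respiratory chain genes lay closer to vehicle at the other permethrin doses. At 1 mg/kg the median log2 difference of the 88 genes was 0.0047, with 48 above vehicle, and 1 member was higher and 0 were lower at an unadjusted p under 0.05 (1.14%, against 1.18% of all probe sets). The median was -0.0027 within array group A, with 1 higher and 5 lower where 7.28% of all probe sets passed, and 0.017 within group B. That member was Cox6a2, which ran from 7.42 to 8.35 with a median of 7.77 and differed from vehicle by 0.25 (SE 0.10). At 100 mg/kg the median was 0.050, with 69 above vehicle, and 1 member, Ndufb6, was higher and 0 were lower (1.14%, against 1.24%). Ndufb6, an accessory subunit of the membrane arm of complex I, ran from 10.84 to 11.12 in vehicle rats (median 10.94) and from 10.77 to 11.34 at 100 mg/kg (median 11.06), a difference of 0.11 (SE 0.050). The median over the members at 100 mg/kg was 0.12 within array group A, 0.0037 within group B and 0.012 without the arrays that stand apart. In the linear trend over permethrin dose, where a value is the fitted change from 0 to 100 mg/kg, 0 members passed the unadjusted limit (background 0.696%) and the median was 0.033 with 75 of 88 above 0. This direction did not hold in all arrays: the median was 0.11 within array group A, but -0.013 within group B (30 of 88 above 0) and -0.0015 without the arrays that stand apart (43 of 88). Cox7a2l, a factor of respiratory supercomplexes, had the lowest p in this trend, with a fitted change of 0.067 (SE 0.045). Because the 3 permethrin groups were each compared with the same vehicle rats, their differences are not independent of each other.

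Deltamethrin gave small positive medians and no member at an unadjusted p under 0.05 in the main fit, which had no block, covariate or further scaling. At 0.3 mg/kg the median log2 difference was 0.036 with 70 of 88 above vehicle, and 0 members passed (background 0.751%). At 1 mg/kg the median was 0.041 with 63 above vehicle, and 0 passed (background 2.24%). The median at this dose was 0.10 within array group A and 0.0083 within group B (50 of 88 above vehicle). With each array centred on its median 4 members were higher, and with the first principal component as a covariate 4 were higher and 2 lower, where 2.64% and 5.57% of all probe sets passed. At 3 mg/kg the median was 0.033 with 60 above vehicle, and 0 passed (background 1.36%). The median was 0.033 within either array group at 3 mg/kg, and at 0.3 mg/kg it was 0.039 within group A and 0.013 within group B. Over all probe sets the medians were -0.0055, -0.0095 and -0.0054 at these doses. In the linear trend, 0 passed (background 1.36%), and the median fitted change to 3 mg/kg was 0.023.

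The members with the lowest p at each deltamethrin dose are given with their values. At 0.3 mg/kg Atp5mg, a small subunit of the membrane part of complex V, ran from 11.90 to 12.18 (median 12.11) against 11.81 to 12.08 in vehicle (median 12.04), a difference of 0.083 (SE 0.055). At the same dose Atp5if1 differed from vehicle by 0.10 (SE 0.069). At 1 mg/kg Ndufa2 ran from 9.91 to 10.29 (median 10.05), a difference of 0.15 (SE 0.074) with 7 of 8 rats above the vehicle mean, and Atp5mg differed by 0.10 (SE 0.055). At 3 mg/kg Ndufab1, the mitochondrial acyl carrier protein, which is a complex I subunit and also serves lipoic acid synthesis, ran from 10.95 to 11.39 (median 11.14) against 10.97 to 11.25 in vehicle (median 11.05), a difference of 0.086 (SE 0.053). At that dose Ndufa8, an accessory subunit of complex I, ran from 11.66 to 11.77 against 11.52 to 11.78 in vehicle, with 8 of 8 rats over the vehicle mean and a difference of 0.070 (SE 0.045). Ndufab1 and Ndufa8 also had the lowest p in the deltamethrin trend, with fitted changes of 0.075 (SE 0.040) and 0.068 (SE 0.038).

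The 2 compounds were compared directly in 4 pairs of doses: the highest, the middle and the lowest doses, and 1 mg/kg of each. Named members were also adjusted over the 4 pairs. No member passed either adjustment. For the middle doses, 1 mg/kg of deltamethrin against 10 mg/kg of permethrin, 0 members were higher and 1 was lower with deltamethrin at an unadjusted p under 0.05 (background 1.02%), and 14 of 88 were above the permethrin group, with a median difference of -0.045. Without the arrays that stand apart the median was -0.018, with 29 of 88 above 0. That member was Cox6a2. Its 8 rats at 1 mg/kg deltamethrin ran from 7.44 to 7.64 with a median of 7.58, and 0 of 8 lay above the mean at 10 mg/kg permethrin. The difference was -0.28 (SE 0.11, 95% interval -0.51 to -0.051), with limma's unadjusted p of 0.017, which was 0.070 when adjusted over the 4 pairs. It was -0.29 within array group A and -0.28 within group B. At 1 mg/kg of each compound Cox6a2 was again lower with deltamethrin, by -0.24 (SE 0.11), and 0 of 8 rats lay above the permethrin mean. These 2 comparisons share the deltamethrin rats.

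At 1 mg/kg of each compound, 1 member was higher and 1 lower at an unadjusted p under 0.05 (background 2.73%), with a median difference of 0.044 and 68 of 88 above 0. The direction turned within array group B, where the median was -0.0099 (38 of 88 above 0) and 0 members passed. It was 0.11 within group A, with 8 higher where 4.54% of all probe sets passed, and 0.017 without the arrays that stand apart. The higher member was Ndufa8, which ran from 11.58 to 11.85 (median 11.70) with deltamethrin and from 11.49 to 11.72 (median 11.58) with permethrin, a difference of 0.12 (SE 0.049, limma p of 0.059 adjusted over the 4 pairs). For the lowest doses, 0.3 mg/kg of deltamethrin against 1 mg/kg of permethrin, 2 members were higher and 0 lower (background 2.41%), with a median of 0.028. Within array group A 13 were higher and 1 lower, where 11.4% of all probe sets passed. Within group B 0 passed and the median was -0.00012, and without the arrays that stand apart 0 passed and the median was 0.0087. Sdha, the flavoprotein of complex II that oxidizes succinate, ran from 11.27 to 11.71 (median 11.54) against 11.03 to 11.56 (median 11.41), a difference of 0.16 (SE 0.065, limma p of 0.069 adjusted over the 4 pairs). Atp5mc3, which encodes the c subunit of the rotor of complex V, ran from 13.02 to 13.16 against 12.85 to 13.10, a difference of 0.059 (SE 0.029). For the highest doses, 3 mg/kg of deltamethrin against 100 mg/kg of permethrin, 0 members passed in either direction (background 0.802%), with a median of -0.017 and 26 of 88 above 0. The direction turned without the arrays that stand apart, with a median of 0.030 and 67 of 88 above 0, and was the same within array group B (0.030 and 67), against -0.10 within group A (13 of 88). The pseudogene Cox6c-ps1 had the lowest p there, with a difference of -0.17 (SE 0.083). Cox6b2, a testis isoform of complex IV, followed at -0.064 (SE 0.054).

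The intervals give the precision for single genes. Against vehicle, the 95% interval of a member reached a median of 0.17 to either side of its difference, from 0.053 for the most precise to 0.57 for the least precise. At 10 mg/kg permethrin the whole interval of 83 of 88 members lay inside ±0.5 on the log2 scale, and that of 36 inside ±0.25. At 100 mg/kg permethrin these counts were 87 and 47, and at 3 mg/kg deltamethrin 86 and 55. For the highest doses of the compounds against each other they were 86 and 56. A p above the limit does not show that the compounds acted alike on any of these genes. An interval inside a bound limits the size of a difference and does not show likeness either.

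The core subunits had differences of both signs against vehicle. In complex I, Ndufv1, the flavoprotein that oxidizes NADH, ran from 11.11 to 12.05 in vehicle rats (median 11.32) and differed by 0.16 (SE 0.11) at 10 mg/kg permethrin and by 0.098 (SE 0.11) at 3 mg/kg deltamethrin. Ndufs7 and Ndufs8, which carry the last iron-sulfur clusters before ubiquinone, differed by 0.18 (SE 0.13) and 0.22 (SE 0.13) at 10 mg/kg permethrin. Ndufv2 differed by 0.11 (SE 0.10) and Ndufs1, the largest iron-sulfur subunit, by -0.069 (SE 0.14) at this dose. Ndufs1 was below vehicle at 5 of the 6 doses and above it, by 0.078, at 0.3 mg/kg deltamethrin. In complex II, Sdha, the iron-sulfur subunit Sdhb and the membrane anchors Sdhc and Sdhd differed by 0.062, 0.097, 0.12 and 0.058 at 10 mg/kg permethrin, with SEs of 0.059 to 0.12. In complex III, the core subunit Uqcrc1 and the Rieske protein Uqcrfs1 differed by 0.14 (SE 0.12) and 0.076 (SE 0.13). In complex V, the catalytic subunits Atp5f1a and Atp5f1b differed by 0.060 (SE 0.044) and 0.019 (SE 0.048), and Atp5mc3 by 0.042 (SE 0.027). All of these had an adjusted p of 0.961 or above.

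The tissue isoforms of complex IV were measured side by side but on different probe sets, so their levels were not compared. At 10 mg/kg permethrin the widely used isoforms Cox4i1, Cox6a1, Cox6b1 and Cox8a differed from vehicle by 0.050, 0.016, 0.13 and -0.018, with SEs of 0.047 to 0.063. Cox4i2, the lung and hypoxia isoform, differed by 0.058 (SE 0.13), Cox6b2 by 0.037 (SE 0.050), Cox7a1, a muscle isoform, by 0.0027 (SE 0.070) and Cox8b, also a muscle isoform, by -0.064 (SE 0.093). Cox6a2 was the exception in size, at 0.29. Cox6b2, Cox7b2 and Cox8b were the 3 members with a mean log2 value below 6, and the other 85 passed that limit.

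Respiratory chain genes differed in both directions on the 15 arrays that stand apart, as probe sets did at large. Relative to the other 45 arrays, 53 of 88 members and 19033 of all 31042 probe sets were higher, a like share. The members had differences from -1.19 to 0.54 with a median of 0.099, against 0.056 over all probe sets. The members farthest below were the complex I assembly factor Ndufaf4 (mean 7.19 on the 15 arrays and 8.37 on the others) and the small complex IV subunits Cox7b (10.88 and 11.82) and Cox7c (10.95 and 11.75). They were followed by the complex V subunits Atp5mk (11.50 and 12.18) and Atp5pb (11.41 and 12.06). The members farthest above were the core complex I subunit Ndufs7 (11.15 and 10.61), the accessory subunit Ndufa11 (10.84 and 10.30), Uqcrfs1 (11.67 and 11.15), Uqcrc1 (12.26 and 11.76), Sdhb (11.99 and 11.50) and Ndufs3 (11.26 and 10.77). By complex the median difference was 0.19 for complex I, 0.031 for complex II, 0.083 for complex III, 0.073 for complex IV and -0.011 for complex V. No label names a property that the 15 arrays share, and these values are a description of arrays grouped on other probe sets. On the same arrays the median difference was -0.39 for the neuronal markers, with Rbfox3 alone of the 4 above 0, at 0.29. It was -0.42 for inhibitory neurons, where Gad1 (-0.42) and Gad2 (-0.88) were below 0 and Slc32a1 (0.46) was above. It was 0.44 for striatal neurons, 0.36 for endothelial cells, 0.32 for microglia and 0.17 for oligodendrocytes. Excitatory cortical neurons (-0.028) and astrocytes (-0.013, from -1.10 for Aqp4 to 0.70 for Aldh1l1) had medians near 0. The part of any of these in the members' differences was not tested.

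**Figure D4:**
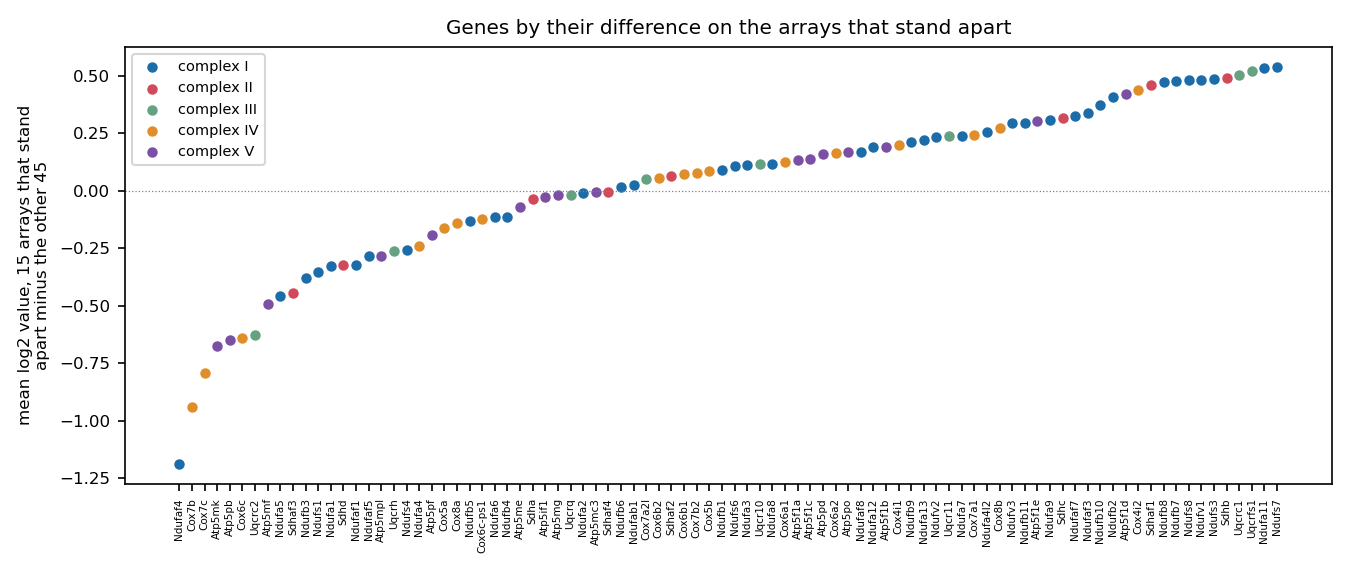
Mean log2 value on the 15 arrays that stand apart minus the mean on the other 45 (vertical axis) for each respiratory chain gene, in order (horizontal axis), coloured by complex. The genes run from Ndufaf4 at -1.19 to Ndufs7 at 0.54, and each complex has genes on both sides of 0.

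The spread of single genes within groups differed widely. The SD within groups was largest for Ndufaf4 (0.64) and Cox7b (0.53) and smallest for Atp5mc3 (0.048) and Cox7a2l (0.088). Over the 88 members its median was 0.19, against 0.18 over all probe sets. Within array group B, which holds 1 of the 15 arrays, the median was 0.11 over the members and 0.14 over all probe sets, and Ndufaf4 and Cox7b had SDs of 0.28 and 0.23. Ndufaf4 ran from 7.25 to 8.64 in vehicle rats and from 5.98 to 8.58 at 10 mg/kg permethrin, where its difference from vehicle was -0.38 (SE 0.28). The 15 arrays, on which Ndufaf4 was low, include 3 of the 8 at this dose and 2 of the 12 vehicle arrays. Without the 15 arrays the lowest difference of any member at this dose was -0.15. The part of these arrays in the difference of Ndufaf4 was not tested.

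Within array group B the respiratory chain genes varied together from rat to rat. Deviations from group means were correlated between members over the 36 arrays with a median Pearson's r of 0.27 over 3828 pairs of genes, and 70.8% of the pairs were above 0. Over all pairs of the 14217 named genes the median was 0.00 and 49.9% were above 0. Members and named genes were not matched by mean log2 value, and its part in this gap was not tested. The median r was 0.37 within complex I, 0.38 within complex II, 0.42 within complex III and 0.26 within complex V, but 0.056 within complex IV. Among members, 53 of 88 had an r above 0.5 with the median of the other members. The highest were Ndufb6 (0.91), Atp5po (0.88), a subunit of the stalk of complex V, and Ndufb7 (0.86). The 9 members below 0 were the pseudogene Cox6c-ps1 (-0.52), the complex IV isoforms Cox4i2 (-0.40), Cox7b2 (-0.29), Cox7a1 (-0.29), Cox6b2 (-0.22) and Cox8b (-0.074), the complex V subunits Atp5me (-0.23) and Atp5f1b (-0.068), and Ndufa4l2 (-0.012). In array group A the median r was 0.22 over the members and 0.18 over all named genes, a smaller gap than in group B. Arrays share the processing in 1 set and the RNA of 1 rat each, and these correlations are a description with no test.

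**Figure D5:**
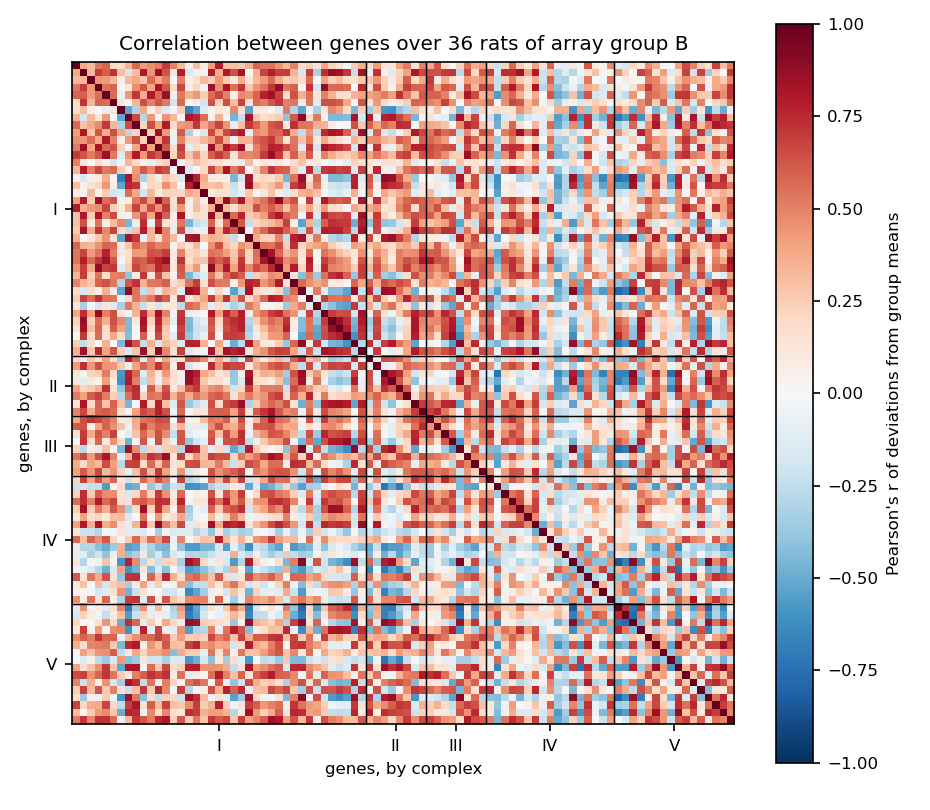
Pearson's r (colour, from -1 to 1) between the deviations from group means of each pair of respiratory chain genes over the 36 rats of array group B, with genes in both axes ordered by complex. The block of complex I has a median r of 0.37, and the block of complex IV of 0.056.

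For 10 members more than 1 probe set was measured. The paired probe sets of Uqcrc2, Sdhd and Ndufa7 moved together over array group B (r of 0.79, 0.73 and 0.64), whereas those of Atp5po ran against each other (-0.43), and the dimmest probe set of Atp5if1 ran against the brightest (-0.44). With 10 mg/kg permethrin the brighter probe set of Atp5po differed from vehicle by 0.19 (SE 0.072) and the dimmer by 0.0036 (SE 0.050). Over all 99 probe sets the median difference at this dose was 0.080 and 20 were higher at the unadjusted limit.

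The assembly factors among the members held 6 genes of complex I and 4 of complex II. After 10 mg/kg permethrin 8 of 10 were above vehicle, with a median difference of 0.12. Ndufaf3 differed by 0.20 (SE 0.086) and Ndufaf7 by 0.14 (SE 0.091), and Ndufaf4 was the lowest. Sdhaf2, which helps attach flavin to Sdha, differed by 0.074 (SE 0.12).

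Genes of the same pathway outside the name rule were examined from fixed lists, and again none passed the adjusted test. Of other subunits and cytochrome c, 3 of 4 were measured, the subunits Ndufc1, Ndufc2 and Cyc1. Cytochrome c itself was not among them. All 3 were above vehicle at 10 mg/kg permethrin and 1 was higher at an unadjusted p under 0.05. That gene was the complex I subunit Ndufc1, which differed by 0.14 (SE 0.056). Of 28 symbols listed as further assembly factors, 26 were measured (the list's Atpif1 is an older symbol of the member Atp5if1), and 20 of 26 were above vehicle at this dose, with a median difference of 0.11. At an unadjusted p under 0.05, 6 were higher and 1 was lower, where 3.48% of all probe sets passed. Tmem126b, which takes part in complex I assembly, differed by 0.18 (SE 0.069), with 8 of 8 rats over the vehicle mean. Of 17 genes of pyruvate dehydrogenase and the citric acid cycle 13 were measured, with 1 higher, Mdh2 (malate dehydrogenase) at 0.18 (SE 0.070), and a median of 0.046. Of 11 regulators of mitochondrial genes all 11 were measured and 0 passed at this dose, with a median of 0.052. Among them the coactivator Ppargc1a differed by -0.35 (SE 0.21). On the 15 arrays that stand apart its mean differed by -0.90 from the others. These arrays include 3 of the 8 at this dose and 2 of the 12 vehicle arrays, and their part in its difference was not tested.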

How the data were processed

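Total RNA from frontal cortex of 60 rats was hybridised to Affymetrix rat genome arrays, 1 array per rat. The authors deposited log2 expression values made by RMA with RMAExpress, which corrects background, normalizes the arrays together by quantiles and summarizes each probe set, so that a level has no depth of its own and cannot be compared between probe sets. Groups came from the sample titles. Probe sets were named from the platform annotation: 20826 carried 1 symbol, 436 several and 9780 none. The members and gene lists were chosen with earlier results of these data known. limma 3.58.1 in R 4.3.3 was fitted to all 60 arrays with a mean per group (dose comparisons and compound pairs) or to a compound and its vehicle rats (linear trend), with Benjamini-Hochberg adjustment over 31042 probe sets and a limit of 0.05. Tests were checked on simulated data. Named genes were the 2 members of lowest p in each comparison, those of largest and smallest SD, core subunits, isoform pairs and members with several probe sets; other names, among them the 19 at 10 mg/kg permethrin and the largest array differences, were chosen after their values were seen. Alternatives covered the arrays in the fit, replicate block, array group, first principal component, variance prior, scaling, dim probe sets, linear values and probe set choice. Leaving out the arrays that stand apart, and fits within each array group, were added after seeing the data. The number of arrays limits the precision, and the fits reported had no term for the array groups or the first principal component. The median SD within groups of the members was 0.19 over all arrays and 0.11 within array group B. In these fits 0.696% to 3.48% of all probe sets passed an unadjusted p under 0.05, fewer than that limit gives by chance. Promoters came from RefSeq (GRCr8).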

Additional observations from a re-analysis of the deposited data

Results flagged for a closer look

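In the dose groups of 8 rats, single values that lay far from the other 7 of their group by Dixon's test were found in 39 of 528 combinations of gene and group (7.39%), where chance gives about 1 in 20. Of the 39, 34 came from arrays that stand apart. They concerned 29 genes, and the log2 values of the 20 that fall under the rule for named genes or were named after seeing their values are given. At 0.3 mg/kg deltamethrin Cox6a2 was low at 7.39, Cox6c at 12.5, Cox7c at 11.28, Sdha at 11.27 and Uqcrq at 11.11, whereas Ndufa8 was high at 11.87, Ndufaf7 at 8.48 and Sdhaf1 at 10.52. At 3 mg/kg deltamethrin Atp5mk was low at 11.3, Cox6c at 11.99, Cox7b2 at 4.77 and Cox8a at 12.9, and Ndufs8 was high at 10.31, Ndufv3 at 10.83 and Sdhc at 11.46. At 1 mg/kg permethrin Atp5pd (11.77) and Ndufab1 (10.76) were low. At 10 mg/kg permethrin Cox4i1 (13.49), Ndufa6 (11.56), Ndufa9 (11.64), Ndufab1 (11.55) and Ndufb7 (11.38) were high and Cox8a (12.93) was low. At 100 mg/kg permethrin Ndufv3 (11.25) was high and Atp5mk (11.26), Cox6c (11.99) and Cox8a (12.88) were low.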

How the results depend on the processing

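The count of members called at an adjusted p under 0.05 stayed at 0 in each comparison under each alternative run for it (dose ranks were run for the 2 trends only, and fits of the compared groups alone for the 10 other comparisons), and the lowest adjusted p of any member in any setting was 0.329. Over all probe sets at most 11 passed in any comparison and setting. The sign turned for 7 values of named genes. Atp5if1 at 0.3 mg/kg deltamethrin was -0.0024 with the mean of its probe sets. Without the arrays that stand apart, Ndufb6 in the permethrin trend was -0.012 and Cox6b2 between the highest doses was 0.0018. Within array group B, Atp5mg at 1 mg/kg deltamethrin was -0.0082, Cox7a2l and Ndufb6 in the permethrin trend were -0.0027 and -0.030, and Atp5mc3 between the lowest doses was -0.0052. The cause was not tested. At 10 mg/kg permethrin the count of members higher at an unadjusted p under 0.05 was 27 when the array groups formed a block, where 9.65% of all probe sets passed, against 3.48% in the fit reported. It was 26 with each array centred on its median (4.22%), 22 with the first principal component as a covariate (7.09%) and 16 with an intensity trend and robust prior together (3.35%). With the replicate block it was 15 (5.84%), and 0 members were called in any comparison. Same-numbered rats of different groups correlated with a median r of 0.37 over 168 pairs (-0.82 to 0.90), against 0.0066 for other numbers. Only 112 of the 168 exceeded 0.1, and the numbers were not taken to pair the samples. Numbers 1 to 3 of each dose lay in array group A and 4 to 8 in group B. Vehicle numbers 1 to 6 lay in group A and 7 to 12 in group B. The numbers thus largely followed the array groups, except that the replicate block set vehicle arrays 4 to 6 of group A beside treated arrays of group B.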
